A study of Mus musculus with 2 samples.

Results

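Kupffer cells, the resident macrophages of the liver sinusoids, were examined among CD45+ cells isolated from liver metastases of MC38-LM3b, a mouse colorectal cancer line enriched for cells that colonize liver. A cell was counted as a Kupffer cell when it held at least 1 UMI (unique molecular identifier, which counts 1 captured RNA molecule) of at least 2 of the 4 genes Clec4f, Cd5l, Vsig4 and Timd4, at least 1 UMI of the complement genes C1qa, C1qb and C1qc together, and none of Ptprb, Cd3e or Cd79a, which mark endothelial, T and B cells. This gate selected 117 of 19999 filtered cells, of which 39 came from the Ctrl library and 78 from the KD library. Ctrl mice received tumor cells with a scrambled hairpin (MC38-LM3b-shScramble). KD mice received tumor cells with hairpin number 2 against SLAMF3, the immune receptor that Ly9 encodes (MC38-LM3b-shSLAMF3). The hairpins were in the tumor cells only, so the Kupffer cells of both groups belonged to the host, C57BL/6 mice aged 6 to 8 weeks at injection into the spleen. Livers were taken 2 weeks later. Lesions of 3 mice were pooled into 1 library per group, and single animals could not be told apart. Replicate error was therefore not measured and nothing was tested. The intervals given are 95% intervals of counting error alone and leave out differences between mice. Those of summed UMIs and of their ratios also leave out differences between cells, since they treat each UMI as drawn independently.

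Kupffer cells settle in the liver before birth, renew themselves there and are replaced by monocytes only when their niche is emptied. They sit on the sinusoidal endothelium, bind complement-coated particles through the receptor CRIg (Vsig4), take up apoptotic cells through receptors such as TIM-4 (Timd4), recycle iron from red blood cells and export it through ferroportin (Slc40a1). Their identity depends on LXR-alpha (Nr1h3), ID3 and SPI-C, and the lectin CLEC4F is known in the mouse as a gene of this cell type.

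The hairpin target is shown because it defines the comparison. In capitals are bases that match a mouse transcript without a mismatch.
shRNA-SLAMF3#2: CACCCTAATCTGCACTGTAAA
shRNA-Scramble: caacaagatgaagagcaccaa
The 21 bases of hairpin 2 occurred in 5 of 141767 transcripts searched (GENCODE M21, build GRCm38), and all of them were transcripts of Ly9. The site lies at chr1:171601975-171601995 on the - strand, within exon 3 of the 10 exons of Ly9-202, and in the coding sequence of each of the 3 protein-coding transcripts. The scrambled 21 bases occurred in none of the transcripts. Neither hairpin tells anything about the Kupffer cells by itself, since these did not carry it.

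The promoters of the 4 genes that chose the cells are shown because these genes were detected together in most Kupffer cells. Each line runs from 250 bases before to 50 bases after the transcription start, in RefSeq sequence of build GRCm38.p6, 5′ to 3′ on the gene's strand. Capitals mark TGCTGA, a MAF-type element, and GAGGAA, a core of PU.1-type sites, on either strand.
Clec4f (chr6:83656067-83656366, - strand): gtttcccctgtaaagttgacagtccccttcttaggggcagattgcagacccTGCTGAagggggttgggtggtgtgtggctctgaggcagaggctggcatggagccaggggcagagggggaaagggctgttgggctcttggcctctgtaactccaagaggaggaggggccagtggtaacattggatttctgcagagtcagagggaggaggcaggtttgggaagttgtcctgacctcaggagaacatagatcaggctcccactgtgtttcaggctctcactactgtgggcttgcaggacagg
Cd5l (chr3:87357631-87357930, + strand): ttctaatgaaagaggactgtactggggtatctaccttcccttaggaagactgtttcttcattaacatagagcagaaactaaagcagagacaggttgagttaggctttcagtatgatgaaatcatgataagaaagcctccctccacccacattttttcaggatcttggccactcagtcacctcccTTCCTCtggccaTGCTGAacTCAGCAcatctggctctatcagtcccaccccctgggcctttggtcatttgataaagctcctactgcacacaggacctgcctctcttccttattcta
Vsig4 (chrX:96293389-96293688, - strand): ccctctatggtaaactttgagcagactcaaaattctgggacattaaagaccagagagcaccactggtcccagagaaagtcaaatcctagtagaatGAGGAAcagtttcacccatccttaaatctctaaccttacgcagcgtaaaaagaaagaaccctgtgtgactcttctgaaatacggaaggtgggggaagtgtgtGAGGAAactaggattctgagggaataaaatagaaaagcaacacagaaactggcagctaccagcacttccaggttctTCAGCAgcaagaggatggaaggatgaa
Timd4 (chr11:46810549-46810848, + strand): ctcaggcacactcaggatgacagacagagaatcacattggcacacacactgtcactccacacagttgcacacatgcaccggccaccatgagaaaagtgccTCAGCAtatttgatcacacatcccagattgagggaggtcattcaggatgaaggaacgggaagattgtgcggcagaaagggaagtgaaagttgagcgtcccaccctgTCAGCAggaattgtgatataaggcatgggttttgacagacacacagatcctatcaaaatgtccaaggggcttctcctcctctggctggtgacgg
All 4 windows held TGCTGA or its reverse complement, with 1 match in Clec4f and Vsig4 and 2 matches in Cd5l and Timd4, as did 19.5% of 32851 promoters of the same length. GAGGAA or its reverse complement was found in Cd5l and Vsig4 only, against 28.3% of all promoters. Neither the E-box CACGTG, which 7.15% of all promoters held, nor the DR4 repeat of LXR, which 0.0152% held, was found in these 4 windows. No matches overlapped. These are matches of letters in a short window and not measured binding sites.

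The gate genes were well above their threshold in most of the selected cells. Values of these genes describe the selection and are no finding. Clec4f was detected in 31 of 39 Ctrl and 64 of 78 KD cells, with a median of 10 and 8.5 UMIs per cell. Cd5l, a secreted scavenger receptor protein of macrophages, was detected in all 39 Ctrl cells and in 74 KD cells, with a median of 20 and 18 UMIs. Vsig4 had a median of 8 and 6.5 UMIs and was detected in 29 and 68 cells, and Timd4 had a median of 3 and 2.5 UMIs in 36 and 62 cells. All 4 genes were found together in 27 Ctrl cells (69.2%) and 48 KD cells (61.5%). The ranges of both libraries overlapped for each of the 4 genes.

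**Figure D1:**
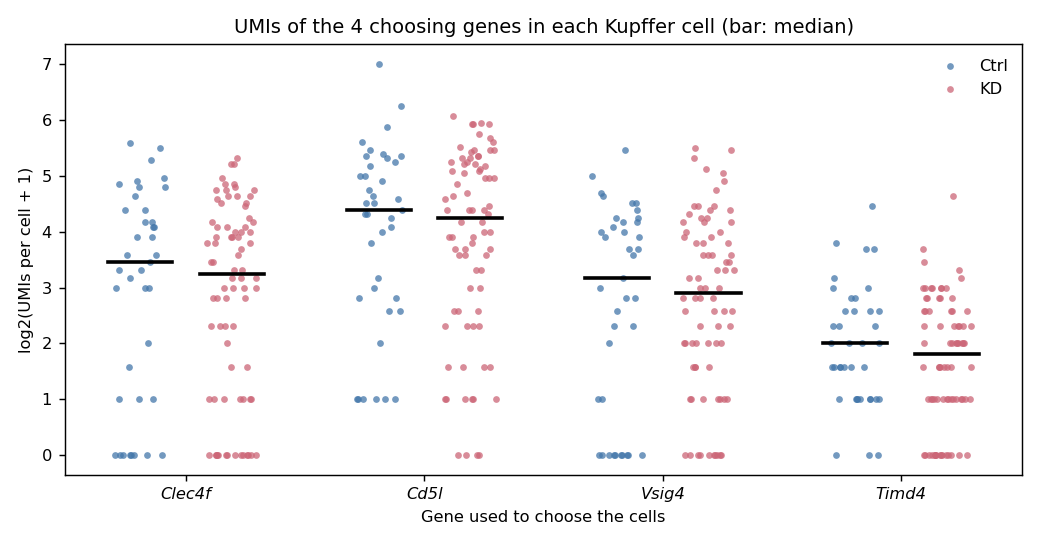
UMIs of Clec4f, Cd5l, Vsig4 and Timd4 in each of the 39 Ctrl and 78 KD Kupffer cells, on the scale log2(UMIs + 1). Each point is 1 cell and the bar is the median of the library, such as 10 UMIs of Clec4f in Ctrl and 8.5 in KD, and the ranges of the libraries overlap for every gene.

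The label was checked with 20 further genes known from Kupffer cells, which the gate did not use (Fcna, Folr2, Marco, Cd163, Slc40a1, Clec1b, C6 and others). A Kupffer cell held a median of 10 of these genes in Ctrl and 11 in KD, at a median depth of 7265 and 6841 UMIs. Other macrophages, defined by C1q and Csf1r or Adgre1 without any of the 4 gate genes, held a median of 1 in both libraries at 6652 and 7950 UMIs, and T cells a median of 0. After thinning every cell to 1500 UMIs, 33 of 35 Ctrl and 65 of 74 KD Kupffer cells held at least 3 of the 20 genes, against 4 of 2391 and 12 of 2110 other macrophages and no T cell. The Kupffer cell label was thus borne by genes outside the gate. Endothelial cells held a median of 4 of the 20 genes, and 43.2% of them in Ctrl and 53.8% in KD held at least 3 after thinning. Several of these genes, such as the vascular cadherin Cdh5, are also expressed by endothelium, so this list separates Kupffer cells from macrophages better than from endothelial cells.

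At the edge of the gate, 9 Ctrl and 14 KD cells held exactly 2 of the 4 genes. They held a median of 6 and 4 genes of the list of 20. Just outside it, 88 Ctrl and 180 KD cells held only 1 of the 4 genes, and their median was 1. Among the cells just inside, 7 of the 39 Ctrl and 3 of the 78 KD Kupffer cells held Cd5l and Timd4 but no UMI of Clec4f or Vsig4. In these 7 Ctrl cells Slc40a1 was at 425 CPM (the UMIs of a gene scaled to a common total of summed UMIs), against 1499 CPM in the other 32. Id3 was at 12.5 CPM against 1171 CPM, and Il10 and Cxcl13 were at 0. The chemokine gene Ccl8 had 246 of its 247 Ctrl UMIs in these 7 cells, 196 of them in 1 cell. Saa3 (94 UMIs) and Fn1 (71 UMIs) were also carried by single cells, and the dendritic cell genes Clec9a and Xcr1 were detected in 5 and 4 of the 7 cells. Other Kupffer genes were not lower in them, with Marco at 862 against 676 CPM and Il18bp at 450 against 372 CPM, and 6 of the 7 held at least 3 of the 20 genes after thinning. These cells met the rule, held part of the further Kupffer genes and lacked Clec4f and Vsig4. Results that rest on them are therefore also given for the 32 Ctrl and 75 KD cells with Clec4f or Vsig4, a choice made after the values were seen.

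UMIs of other cell types were present in the Kupffer cells. For the neutrophil list of 8 genes, the summed level was 448 CPM in Ctrl and 3911 CPM in KD Kupffer cells. It was 1122 and 3984 CPM in other macrophages and 183 and 2584 CPM in T cells, so it was higher in KD in all these classes. S100a9 had 37 UMIs in 6 of the Ctrl cells and 1285 UMIs in 32 of the KD cells, and 1 KD cell alone held 942 UMIs of the list. The neutrophil granule gene Retnlg had 0 and 248 UMIs. For the endothelial list of 12 genes, of which 11 lay outside the gate, the sum was 349 and 321 CPM, with 3 and 4 of these genes at 0. It was 226 and 106 CPM in other macrophages and 68.6 and 96.1 CPM in T cells. The T and NK list was at 39.1 and 17.2 CPM, the B list at 27.0 and 74.2 CPM, the list for tumor cells and fibroblasts at 12.02 and 5.17 CPM, and the platelet list at 3.005 and 0 CPM. The hepatocyte list stood at 276 and 431 CPM, of which 264 and 410 CPM were transferrin (Trf), a gene also listed under iron handling. Apart from the neutrophil list and Trf, these sums were small beside those of the Kupffer genes (5360 and 6800 CPM for the list of 20). How far these UMIs enter the differences below was not tested.

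Kupffer cells differed from the other macrophages of the same library by large factors in the same genes in both libraries. The largest ratios belonged to genes of lipid and iron handling. Apoc1, an apolipoprotein controlled by LXR, was at 964 and 1021 CPM in Ctrl and KD Kupffer cells and at 1.51 and 4.30 CPM in other macrophages. Slc40a1, the iron exporter ferroportin, was at 1241 and 1512 CPM against 3.18 and 12.6 CPM. The log2 ratio of these levels, with 10 CPM added to each, was 6.57 (Ctrl) and 6.08 (KD) for Slc40a1 and 6.40 and 6.17 for Apoc1. Next came the scavenger receptor gene Marco (5.61 and 5.97), the receptor phosphatase Ptprm (5.39 and 5.51), the complement component C6 (4.99 and 5.43), the lipid carrier Fabp7 (5.79 and 4.96) and the ficolin Fcna (5.09 and 4.96). Cdh5, the B cell chemokine Cxcl13, the growth factor Igf1, the folate receptor Folr2, the podoplanin receptor Clec1b, the hemoglobin scavenger receptor Cd163, the prostaglandin-degrading enzyme Hpgd and Abtb3 completed the 15 highest, with ratios between 3.79 and 5.43. All 19 genes of the Kupffer list with at least 20 UMIs were at least 2-fold higher in Kupffer cells in both libraries, where 5.31% of the 5595 genes with at least 20 UMIs were, and 7.52% of the 3019 genes with at least 50. That list was composed of genes known for this difference.

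**Figure D2:**
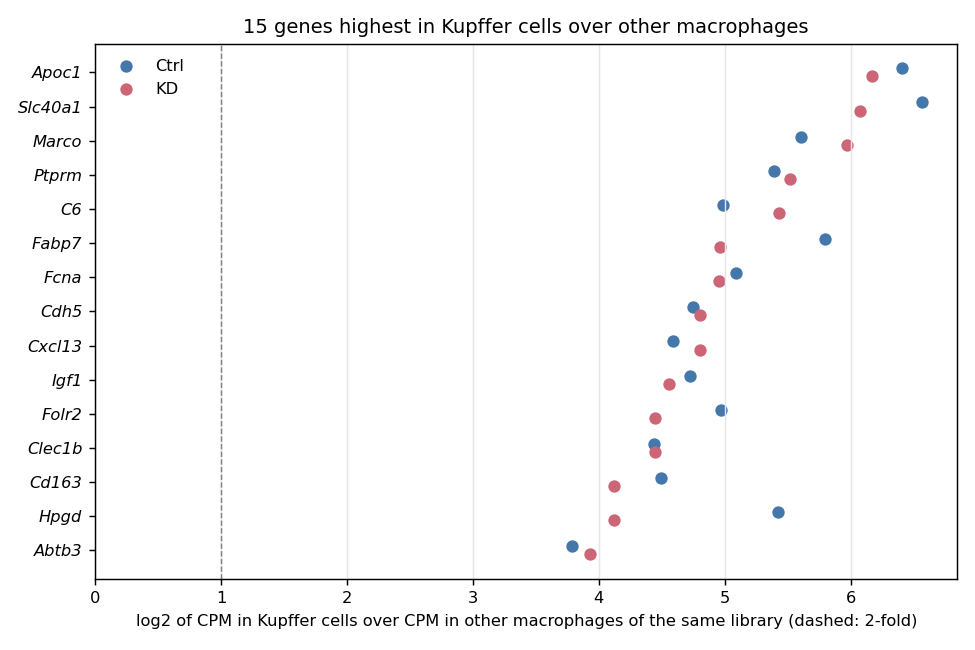
log2 of the CPM in Kupffer cells over the CPM in other macrophages of the same library, with 10 CPM added to each, for the 15 genes with the highest ratio in the lower of the 2 libraries. Blue points are Ctrl, red points KD and the dashed line is 2-fold, and the lowest value is 3.79.

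By role, the receptors for uptake came first. Beside the counts that follow, 5.31% of the 5595 genes with at least 20 UMIs were at least 2-fold higher in Kupffer cells in both libraries. Of 13 measured scavenger and efferocytosis receptors, 8 were at least 2-fold higher in Kupffer cells in both libraries and none lower. They included the mannose receptor Mrc1, at 511 and 688 CPM against 70.1 and 171 CPM, and Mertk, a receptor for apoptotic cells, at 517 and 573 CPM against 132 and 187 CPM. Of the complement genes outside the gate, 5 of 10 were higher in both and 1 lower, of iron and heme genes 6 of 13, and of lipid and LXR target genes 6 of 13. Cfp, which encodes properdin, was at 523 and 540 CPM against 124 and 115 CPM, and heme oxygenase Hmox1 at 1205 and 1274 CPM against 247 and 357 CPM. Apoe reached 6974 and 7991 CPM in Kupffer cells, against 1724 and 4189 CPM in other macrophages. Of 12 Kupffer transcription factors, 5 were higher in both libraries and 1 lower. Spic stood at 147 and 135 CPM against 3.83 and 5.14 CPM, and Nr1h3 at 177 and 264 CPM against 37.6 and 34.3 CPM. In the other direction, 7 of 10 genes of the tumor macrophage list were at least 2-fold lower in Kupffer cells in both libraries, against 1.95% of the 5595 genes with at least 20 UMIs in Kupffer cells, the same minimum, and 1.59% of those with at least 50. Trem2, a lipid receptor of tumor macrophages, was at 51.1 and 44.8 CPM against 115 and 155 CPM. Antigen presentation was not set apart in this way. None of 10 MHC class II genes and none of 12 MHC class I genes reached 2-fold in both libraries in either direction.

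Kupffer cells made up 0.397% of filtered Ctrl cells (39 of 9814, Clopper-Pearson interval 0.283% to 0.543%) and 0.766% of KD cells (78 of 10185, 0.606% to 0.955%). The difference was 0.368 percentage points (0.152 to 0.590). T cells, which should lack these genes, met the condition of 2 gate genes and C1q in 0 of 2812 Ctrl cells (Clopper-Pearson upper limit 0.131%). In KD 1 of 1547 T cells met it (0.0646%), and the median depth was 7273 and 5628 UMIs. Endothelial cells with a Ptprb UMI, which the gate leaves out, met it in 4 of 134 Ctrl (2.99%) and 20 of 592 KD cells (3.38%). How many endothelial cells without a captured Ptprb UMI entered the gate was not tested. Among macrophages the shares were 1.35% (38 of 2812) and 2.65% (69 of 2603), and the difference was 1.30 points (0.532 to 2.10). Endothelial cells, which share the sinusoid with Kupffer cells, made up 1.37% of Ctrl and 5.81% of KD cells. There were 29.1 Kupffer cells per 100 endothelial cells in Ctrl and 13.2 in KD, so the order of the 2 libraries turned when endothelial cells were the reference. The amount of liver around the lesions and the yield of the CD45+ selection cannot be told apart from the group here. Without the exclusion of cells with Ptprb, Cd3e or Cd79a the counts were 47 and 101. When every cell with any UMI of 40 genes of other lineages, each found in under 10% of other macrophages after thinning to 1500 UMIs, was left out, 11 Ctrl and 8 KD Kupffer cells remained and the difference was -0.0335 points (-0.133 to 0.0611). Cells described below as without other-lineage UMIs lacked UMIs of these 40 genes only. The neutrophil genes S100a8 and S100a9 were not among the 40 and still had UMIs among the 11 and 8 cells. From the full neutrophil list, which includes S100a8 and S100a9, 48.7% of Ctrl and 74.4% of KD Kupffer cells held a UMI, as did 20.9% and 66.6% of T cells.

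The background for the comparison of KD with Ctrl is small. Of 3019 genes with at least 50 UMIs in the Kupffer cells, 70 were at least 2-fold higher in KD (2.32%) and 92 at least 2-fold lower (3.05%). With TMM scaling factors the split was 94 higher and 73 lower. Among the 5595 genes with at least 20 UMIs, the minimum used for gene lists, the shares were 5.38% and 4.18%, and the median log2 ratio was 0.01. For cells with Clec4f or Vsig4 they were 3.18% and 4.04% of the 3019 genes, and 125 of the 162 genes past 2-fold stayed so. Ly9, the gene targeted in the tumor cells, had 14 UMIs in 9 Ctrl and 26 UMIs in 18 KD Kupffer cells, a log2 ratio of 0.09 (-0.90 to 1.14). Since the hairpin was in the tumor cells, this value does not check the labels. The Kupffer cells held 332829 UMIs in Ctrl and 579870 in KD, and their median mitochondrial share was 1.27% and 1.96%. No barcode of a Kupffer cell occurred in both libraries, among 27 shared barcodes in all.

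Few Kupffer identity genes were 2-fold apart between the groups. Of the 19 measured genes of the Kupffer list, 1 was at least 2-fold higher in KD and 1 lower, where 5.38% and 4.18% of the 5595 genes were. The median log2 ratio of the list was 0.18. Folr2 was at 457 CPM in Ctrl and 467 CPM in KD (log2 ratio 0.03, -0.26 to 0.33), and Cd163 at 216 and 209 CPM (-0.05, -0.48 to 0.39). Slc40a1 had 413 UMIs in Ctrl (Poisson interval 374 to 455) and 877 in KD (820 to 937), a ratio of 0.29 (0.12 to 0.46). Marco differed most among the well-measured members, with 240 UMIs (211 to 272) and 760 UMIs (707 to 816), or 721 and 1311 CPM, and a ratio of 0.86 (0.65 to 1.08). It was detected in 23 of 39 and 51 of 78 cells. The genes past 2-fold were the lectin Cd207 (9 and 36 UMIs) and the potassium channel Kcna2 (11 and 9 UMIs), both at low counts. In other macrophages 11 of these 19 genes were at least 2-fold higher in KD, where 1.95% of the 5595 genes were, at levels far below those of Kupffer cells, such as 1.24 and 7.71 CPM for Fcna.

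Of the 12 Kupffer transcription factors, 1 was at least 2-fold higher in KD (Smad4, a mediator of TGF-beta signaling, 13 and 47 UMIs, ratio 1.05) and none lower, with a median of 0.00. Of the 5595 genes, 5.38% were at least 2-fold higher in KD and 4.18% lower. Id3, an inhibitor of DNA binding that Kupffer cells need, had 297 UMIs in Ctrl (264 to 333) and 263 in KD (232 to 297), or 892 and 454 CPM. Its log2 ratio was -0.98 (-1.22 to -0.73), while it was 1.07 in other macrophages. It was -1.32 with Clec4f or Vsig4 required, -0.63 after thinning and -0.076 in the 11 and 8 cells without other-lineage UMIs. The same share of cells held it in both groups, 27 of 39 and 54 of 78, and the highest cell held 44 and 18 UMIs. Nr1h3 went the other way, with 177 and 264 CPM (0.57, 0.13 to 1.03), and Spic was at 147 and 135 CPM (-0.13, -0.66 to 0.42).

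Apart from the neutrophil list described above, the immediate early and heat shock genes, which cells switch on rapidly after a stimulus, had the most members past 2-fold in 1 direction. Of 12 genes, 6 were at least 2-fold lower in KD Kupffer cells, where 4.18% of all genes were, none was higher, and all 12 had a ratio below 0. Their median log2 ratio was -0.98, and their summed level was 7577 CPM in Ctrl and 3961 CPM in KD. In other macrophages none of the 12 reached 2-fold and the median was -0.44, and in T cells the sum was 6281 CPM in Ctrl and 4630 CPM in KD. Egr1, a growth-induced zinc finger factor, had 184 UMIs (158 to 213) in 22 of 39 Ctrl cells and 59 UMIs (44.9 to 76.1) in 15 of 78 KD cells, a ratio of -2.44 (-2.89 to -2.01). Fosb, a subunit of AP-1, had 167 and 70 UMIs (-2.06, -2.48 to -1.64). Junb was at 1169 and 526 CPM (-1.15), the stress factor Atf3 at 300 and 135 CPM (-1.16), Ier2 at 246 and 121 CPM (-1.03) and the co-chaperone Dnajb1 at 165 and 51.7 CPM (-1.68). No single cell held over 34.6% of the Ctrl UMIs of any of these 6 genes. With only the Clec4f or Vsig4 cells, 10 of the 12 were at least 2-fold lower, where 5.06% of the 5595 genes were, and the median was -1.22. In the 11 and 8 cells without other-lineage UMIs the median was -0.26, with Fosb at -0.63 and Atf3 at 0.22.

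Of 12 measured cytokines and growth factors, 4 were at least 2-fold lower in KD and none higher, where 4.18% and 5.38% of the 5595 genes were. In this list 2 genes had a ratio above 0 and the median was -0.24. Il10, the gene of an anti-inflammatory cytokine, had 100 UMIs (81.4 to 122) in 17 of 39 Ctrl cells and 41 UMIs (29.4 to 55.6) in 8 of 78 KD cells, or 300 and 70.7 CPM, with a ratio of -2.09 (-2.65 to -1.55). Tnf, the pro-inflammatory counterpart, had 63 and 36 UMIs (-1.61, -2.24 to -0.995), and Il1a had 109 and 75 UMIs (-1.34, -1.78 to -0.90). Genes of opposite function in inflammation were thus lower together. Il6 had 48 and 30 UMIs (-1.48), of which 47.9% of the Ctrl UMIs came from 1 cell, and without the cells lacking Clec4f and Vsig4 it was -0.87. Il1b, the most abundant of this list, was at 889 and 743 CPM (-0.26, -0.48 to -0.04). Il18, another inflammasome cytokine, was at 186 and 247 CPM (0.40, -0.03 to 0.86), and was found in 11.4% and 29.7% of cells after thinning to 1500 UMIs (difference 18.3 points, -0.02 to 32.6). Of other mediators, Ptgs2, which encodes cyclooxygenase 2, had 59 and 12 UMIs (-3.10, -4.13 to -2.19), and Nos2, the inducible nitric oxide synthase, had 27 and 11 UMIs (-2.10, -3.26 to -1.04). Hilpda, a hypoxia-induced lipid droplet gene, was at 463 and 174 CPM (-1.41). In other macrophages these 3 ratios were -0.55, -2.61 and 0.68.

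Chemokines differed in both directions, with 3 of 17 at least 2-fold higher in KD and 4 lower, where 5.38% and 4.18% of the 5595 genes were. With Clec4f or Vsig4 required, 5 were higher and 2 lower, where 7.29% and 5.06% of the 5595 genes were. The genes higher in KD were all CC chemokines. Ccl6 had 238 UMIs (209 to 270) and 965 UMIs (905 to 1028), or 715 and 1664 CPM, a ratio of 1.22 (1.01 to 1.43). Ccl24, an attractant of eosinophils, had 149 UMIs (126 to 175) and 626 UMIs (578 to 677), a ratio of 1.27 (1.01 to 1.54), and Ccl9 had 11 and 56 UMIs (1.55). The same 3 genes were higher in KD in other macrophages, by 1.38, 3.26 and 1.55. In the 11 and 8 Kupffer cells without other-lineage UMIs, Ccl6 was at -0.076, Ccl24 at -0.94 and Cxcl2 at 0.17, so these directions were not kept there. No intervals were computed for ratios from so few cells. Ccl24 was at 448 and 1080 CPM in Kupffer cells against 13.9 and 133 CPM in other macrophages. The neutrophil attractants were among the genes lower in KD. Cxcl2 had 663 UMIs and 477 UMIs, or 1992 and 823 CPM (-1.28, -1.45 to -1.10), while it was 0.33 in other macrophages, and Cxcl1 had 27 and 9 UMIs (-2.39), with 66.7% of the Ctrl UMIs in 1 cell. Ccl8 (247 and 85 UMIs, -2.34) depended on the cells described above: with Clec4f or Vsig4 required, it had 1 and 46 UMIs and a ratio of 4.39 (1.84 to 9.72). Ccl12, the remaining gene past 2-fold, had 38 and 11 UMIs (-2.59), and 10 and 11 UMIs (-0.999) with Clec4f or Vsig4 required. Cxcl13 was carried by 12 of 39 and 20 of 78 cells and differed little (0.31, -0.09 to 0.71).

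**Figure D3:**
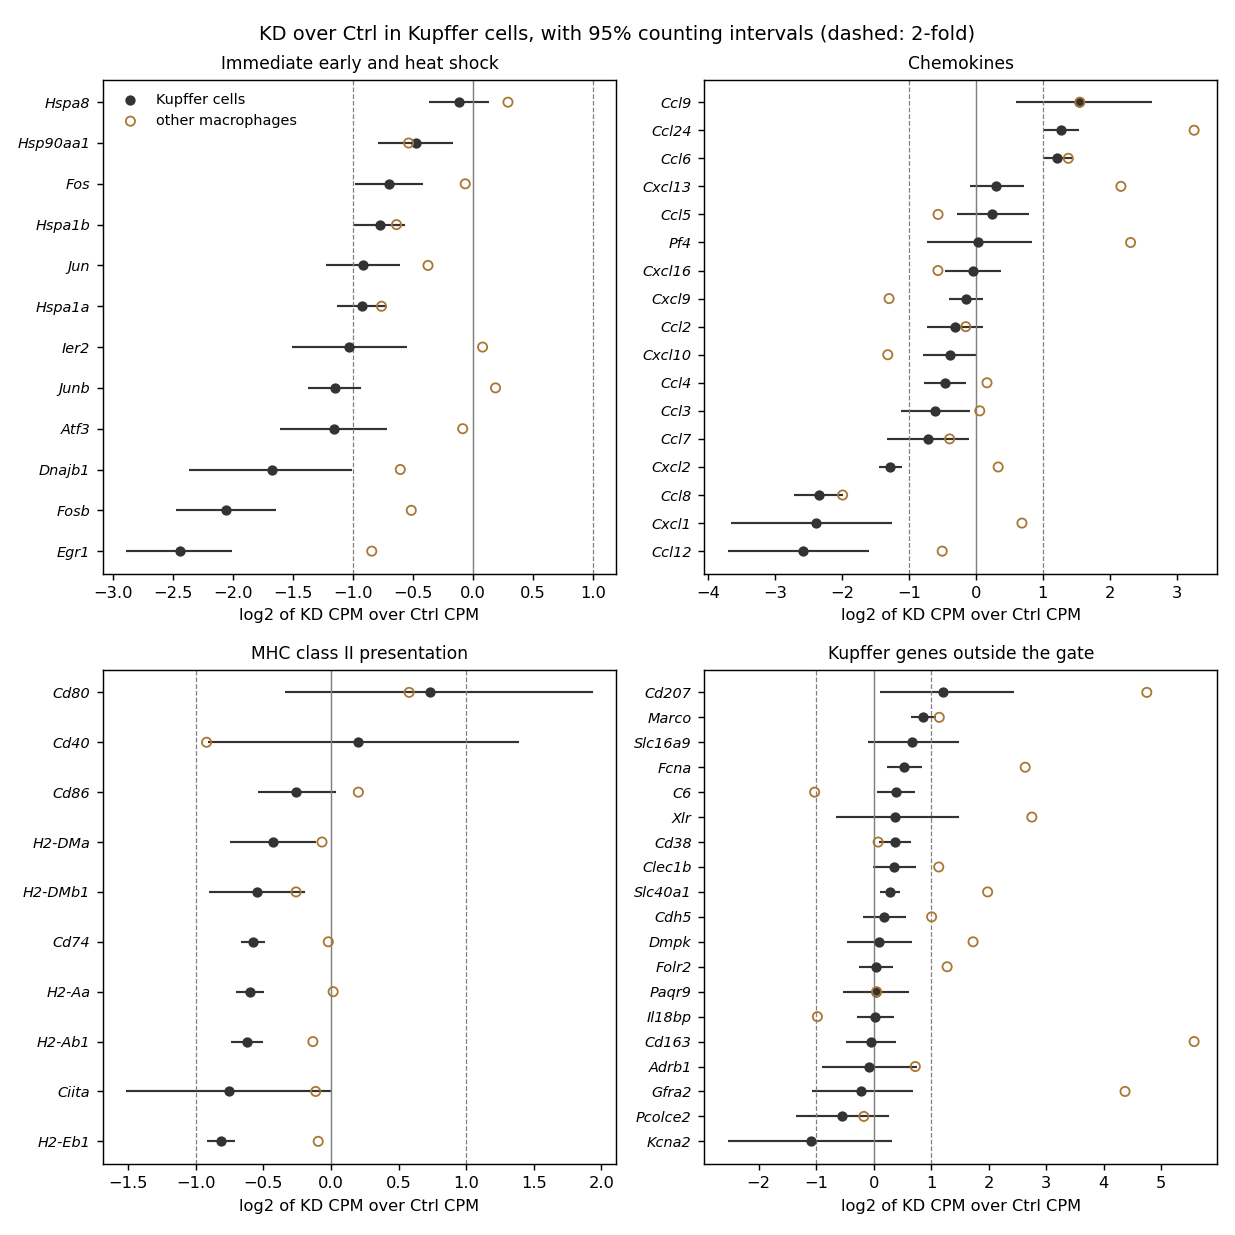
log2 of the KD CPM over the Ctrl CPM for the genes with at least 20 UMIs in 4 groups, where black points with bars are Kupffer cells with 95% counting intervals, open circles are other macrophages (none drawn where a library had 0 UMIs there) and dashed lines are 2-fold. All 12 immediate early and heat shock genes lie below 0 in Kupffer cells, chemokines lie on both sides, 8 of 10 MHC class II genes lie between 0 and -1, and most Kupffer genes lie between 0 and 1.

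None of 10 genes of antigen presentation by MHC class II passed 2-fold in either direction. Of these, 8 had a ratio below 0 and the median was -0.56, against -0.08 in other macrophages. H2-Eb1, a beta chain, had 1581 UMIs (1504 to 1661) in Ctrl and 1569 (1492 to 1649) in KD, or 4750 and 2706 CPM, a ratio of -0.81 (-0.91 to -0.71). H2-Aa was at 4384 and 2897 CPM (-0.60), H2-Ab1 at 3209 and 2083 CPM (-0.62) and the invariant chain Cd74 at 5673 and 3797 CPM (-0.58). The median cell held 17 UMIs of H2-Eb1 in Ctrl and 6.5 in KD. Part of this rested on the cells without Clec4f and Vsig4, since the median was -0.25 without them. MHC class I genes had a median of -0.29, and none of 12 passed 2-fold.

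Interferon-stimulated genes mostly had ratios below 0 in Kupffer cells, and some passed 2-fold. Of 14 measured genes of the interferon-gamma response, 2 were at least 2-fold lower in KD Kupffer cells, where 4.18% of the 5595 genes were. The median of the 14 was -0.60, and 1 of them had a ratio above 0. In other macrophages 10 were at least 2-fold lower (median -1.17), where 1.05% of the 5595 genes were. The difference between these classes was not tested. The GTPase gene Iigp1 was at 300 and 133 CPM in Kupffer cells (-1.18, -1.63 to -0.73) and 414 and 180 CPM in other macrophages (-1.20). Socs1, an inhibitor of cytokine signaling, had 19 and 9 UMIs (-1.88), with 52.6% of the Ctrl UMIs in 1 cell, and 0.45 without the cells lacking Clec4f and Vsig4. Cxcl9, induced by interferon-gamma, was at 625 and 562 CPM in Kupffer cells (-0.15), with 60.6% of the Ctrl UMIs in 1 cell. In other macrophages Cxcl9 was at 1565 and 637 CPM (-1.30). The Ctrl Kupffer cells lacking Clec4f and Vsig4 held 165 of its 208 UMIs. With Clec4f or Vsig4 required, Cxcl9 was higher in KD Kupffer cells, with 43 and 285 UMIs, or 170 and 513 CPM. Of 11 type I interferon genes, 2 were lower in KD, the antiviral genes Rsad2 (110 and 78 UMIs, -1.30, -1.73 to -0.87) and Ifi44 (18 and 10 UMIs, -1.65), with a median of -0.45 and none above 0.

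Few genes of uptake and metabolism were 2-fold apart. For all counts in this paragraph, 5.38% of the 5595 genes were at least 2-fold higher in KD and 4.18% lower. Of 13 scavenger and efferocytosis receptors, 1 was at least 2-fold higher in KD and none lower, with a median of 0.15. This was Siglec1, the sialoadhesin of resident macrophages, with 9 UMIs in 7 cells and 39 UMIs in 26 cells (1.31, 0.25 to 2.55). Msr1 was at 300 and 495 CPM (0.72), Lrp1 at 246 and 440 CPM (0.84) and Mrc1 at 511 and 688 CPM (0.43). The complement genes outside the gate had a median of -0.08, and none of 10 was at least 2-fold lower. Iron and heme genes had a median of -0.24 and 1 of 13 past 2-fold, the importer Slc11a2 (17 and 13 UMIs, -1.19). For lipid and LXR target genes the median was 0.20, with 0 of 13 past 2-fold in either direction, and for lysosomal genes it was -0.02, also with 0 of 13. The Fc receptor and checkpoint list had 1 of 15 higher, the inhibitory receptor Lilrb4a (7 and 32 UMIs, 1.39), and a median of 0.09. Pan-macrophage genes had none of 10 past 2-fold and a median of -0.11. In the tumor macrophage list 3 of 10 were lower, namely Ptgs2, Nos2 and Hilpda, and 1 was higher, the elastase Mmp12, with 1 UMI in Ctrl and 53 UMIs in 7 KD cells (4.93, 2.39 to 10.3). In the monocyte list 2 of 9 were higher, among them Ifitm6 (5 and 28 UMIs), and 3 lower (Vcan, Chil3 and Fn1). The cell cycle list had 5 measured genes, of which Mki67 was higher (2 and 18 UMIs).

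The study scored macrophage states with short gene signatures. Of its 6 M1-like genes, none was at least 2-fold higher in KD and 1 lower (Saa3, carried mostly by 1 cell), and the median was 0.20. Of 7 measured M2-like genes, 2 were lower (Il10 and the metalloprotease Amz1, 23 and 18 UMIs) and the median was -0.26. Beside these lists, 5.38% of the 5595 genes were at least 2-fold higher in KD and 4.18% lower. The 3 phagocytosis genes outside the gate, Mertk, Mrc1 and Cd163, had a median of 0.15 and none passed 2-fold.

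The genes with the highest and lowest ratios, ranked with 10 CPM added among genes with at least 50 UMIs, were mostly other genes. Highest in KD was the leptin receptor Lepr, with 7 UMIs in 5 Ctrl cells and 60 UMIs in 17 KD cells (2.30, 1.17 to 3.67), with 35% of the KD UMIs in 1 cell. Lepr was near 0 in other macrophages, at 0.11 and 0.28 CPM. Next was Ddit4, an inhibitor of mTORC1 induced by stress and glucocorticoids, with 6 and 47 UMIs (2.17, 0.94 to 3.69). After thinning, Ddit4 was found in 0 of 35 Ctrl and 3 of 74 KD cells. The ratio of -0.33 there, where 0 UMIs count as 3, therefore shows no turn. In the 11 and 8 cells without other-lineage UMIs the ratio of Ddit4 was -0.49. The steroid receptor coactivator Ncoa1 had the most UMIs of these 10, with 28 in 17 Ctrl cells and 146 in 49 KD cells (1.58, 0.99 to 2.22). Madd, St3gal6, Hipk3, Arfgef1, Setd1b, Smurf2 and Samd4 followed, with ratios between 1.40 and 1.70 and 8 to 18 UMIs in Ctrl. In other macrophages 8 of these 10 genes lay between -0.15 and 0.31, the exceptions being Lepr (1.37) and Samd4 (-1.39). Among the 10 lowest were Saa3, Egr1, Ccl8, Fosb, Il10, Serpina3f, Kitl, Dnajb1 and Gadd45b. Kitl, the gene of stem cell factor, had 39 UMIs in 13 Ctrl cells and 17 in 9 KD cells (-2.00, -2.91 to -1.14). The stress gene Gadd45b had 131 and 77 UMIs (-1.57, -1.99 to -1.15), and the serine protease inhibitor Serpina3f had 44 and 18 UMIs (-2.09, -2.97 to -1.27).

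Sums can be set by few cells, so the share of cells with a UMI was also compared after thinning to 1500 UMIs, which left out 4 cells of each library. Il10 was found in 9 of 35 Ctrl cells (25.7%, 12.5% to 43.3%) and 2 of 74 KD cells (2.70%, 0.33% to 9.42%), a difference of -23.0 points (-40.7 to -8.18), against 1.47% and 2.48% of T cells. For Cxcl2 the shares were 54.3% and 24.3% (difference -30.0, -49.2 to -8.98), against 6.85% and 12.1% of T cells. Egr1 was found in 37.1% and 12.2% (-25.0, -44.0 to -6.57), with 7.104% and 5.87% of T cells. The KD share of Il10 was near that of T cells, and the share of Egr1 was above that of T cells in both groups. In other macrophages Il10 was found in 7.40% of Ctrl and 4.79% of KD cells, and Egr1 in 11.9% and 8.48%. H2-Eb1 was found in 94.3% and 68.9% of Kupffer cells (-25.4, -38.2 to -8.46), against 14.8% and 13.2% of T cells, and Rsad2 in 40.0% and 12.2% (-27.8, -46.9 to -9.03). In the other direction, Ccl6 was found in 48.6% and 74.3% (25.8, 4.87 to 45.4), against 1.97% and 4.50% of T cells. In the pan-macrophage list, Aif1 was found in 80.0% and 55.4% (-24.6, -41.3 to -4.08) and Mertk in 42.9% and 48.6% (5.79, -15.6 to 26.2). In the scavenger list, Clec7a was found in 51.4% and 24.3% (-27.1, -46.6 to -6.29) and Msr1 in 31.4% and 51.4% (19.9, -1.54 to 38.7). Among 19 identity genes the interval of the difference left out 0 for Paqr9 alone, found in 1 of 35 and 14 of 74 cells (2.86% and 18.9%, difference 16.1, 1.49 to 27.2), although its summed level was 123 and 126 CPM and 48.7% of all cells of either library held it. The share of all genes with such an interval was not counted, so this count is no result about the identity genes. The genes named in this paragraph were picked from those measured. Slc40a1 was found in 82.9% and 78.4% (-4.48, -19.8 to 14.2) and Fcna in 45.7% and 43.2% (-2.47, -23.5 to 18.3). In all cells without thinning, Il10 was found in 43.6% and 10.3% of Kupffer cells, Egr1 in 56.4% and 19.2%, H2-Eb1 in 97.4% and 93.6%, Ccl6 in 87.2% and 89.7%, and Cxcl2 in 51.3% and 44.9%.

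**Figure D4:**
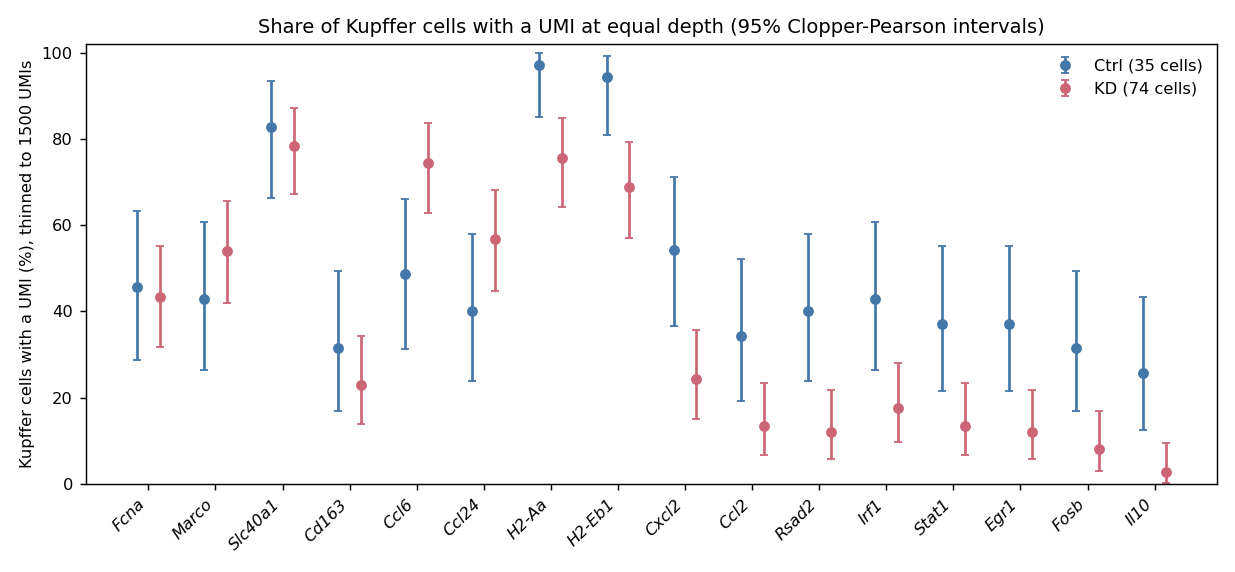
Share of Kupffer cells with a UMI of each gene after thinning every cell to 1500 UMIs, with 95% Clopper-Pearson intervals, for 35 Ctrl (blue) and 74 KD (red) cells. The genes shown were picked from those measured. Identity genes at the left overlap, Ccl6 is higher in KD (48.6% and 74.3%), and the genes from H2-Aa to the right are lower in KD, as for Il10 with 25.7% and 2.70%.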

How the data were processed

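CD45+ cells from liver metastases were profiled by 10x 3' v3.1 single-cell RNA sequencing in 1 Ctrl and 1 KD library. The authors deposited raw UMI counts, made with Cell Ranger 7.1.0 on GRCm39 according to the submitters' processing notes. Of 21359 cells, 19999 passed limits of 200 to 6000 genes, 30000 UMIs and 10% mitochondrial UMIs. These limits were the only step against doublets, and no doublet caller was run. The libraries held 67207234 and 64444715 UMIs.

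Counts were summed over Kupffer cells and over other classes set by single-cell gates, and scaled to CPM. Shares have Clopper-Pearson, sums Poisson and log2 ratios conditional binomial intervals (Python 3.11.15, scipy 1.17.1). With 0 UMIs, 3 counts were taken as the floor. No test was possible with single libraries, so a 2-fold difference served as the call. Genes needed 50 UMIs in all, and 20 for lists. Named were the 10 highest and 10 lowest KD over Ctrl ratios (10 CPM added, leaving out genes whose Kupffer CPM was under 0.2 of their highest class, and mitochondrial, ribosomal, sex-linked marker, unnamed and receptor segment genes), the 15 highest over other macrophages, list members, and genes 2-fold apart in opposite directions. Members and lists were chosen with earlier results of these data known. The ratio and its interval were tested on simulated sums, in which UMIs were drawn independently, as the interval assumes. UMIs gathered in single cells were not simulated, so this does not show that the intervals hold for these cells. Some genes that met these rules are not reported here. Scaling factors came from edgeR (TMM). The alternatives tried were a stricter cell filter, other gates, thinning, other denominators, other UMI minimums, per-cell means and leaving out the 5% of cells with the most UMIs.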

Additional observations from a re-analysis of the deposited data

Results flagged for a closer look

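For 6 genes the KD over Ctrl ratio passed 2-fold in Kupffer cells in one direction and in other macrophages in the opposite one. With 1 library per group the difference between the 2 classes was not tested. Samd4, an RNA-binding repressor of translation, had a log2 ratio of 1.40 in Kupffer cells (18 UMIs in 8 cells and 83 UMIs in 34 cells) and -1.39 in other macrophages, where it was at 3.08 and 1.17 CPM. The remaining 5 were lower in KD Kupffer cells and higher in KD other macrophages, and 4 of them rested on single cells. Saa3 was at -7.52 and 1.76, with 89.5% of its 105 Ctrl UMIs in 1 Kupffer cell. Fn1 was at -3.33 and 1.93, with 94.7% of 75 UMIs in 1 cell, and its ratio was 0.56 when Clec4f or Vsig4 was required. Chil3 was at -2.97 and 2.54, with 72.2% of 18 UMIs in 1 cell, and Vcan at -2.12 and 1.51, with all 20 UMIs in 1 cell. Il6 was at -1.48 and 1.40, with 47.9% of 48 UMIs in 1 of 9 cells.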

How the results depend on the processing

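With 39 and 78 cells from 1 library each, single cells and the gate set the values. No paired analysis was possible because each group has 1 library and the labels carry no replicate numbers. The Kupffer cell share difference kept its direction under the alternatives run except the removal of cells with UMIs of other lineages, which left 11 and 8 cells and gave -0.0335 points. It was 1.30 points among macrophages, and the order also turned per 100 endothelial cells (29.1 and 13.2). The number of genes at least 2-fold higher in KD was 181 without the excluded genes, 13 without cells of other-lineage UMIs, 16 after thinning, 301 at 20 UMIs, 20 at 100 UMIs and 126 with per-cell means, against 70. The number lower was 27, 24, 234 and 49 for other-lineage UMIs, thinning, 20 UMIs and 100 UMIs, against 92. Of the 3019 genes, 243 could be counted after the removal of other-lineage cells and 407 after thinning. For per-cell means and for the gate without excluded genes the cause was not tested.

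Of 738 values for 68 genes, 603 stayed within the counting interval, 115 moved outside it and 20 that were past 2-fold changed sign, for which the cause was not tested. Ccl8 became 4.38 with 3 markers required, 2.44 with Clec4f required, 4.39 with Clec4f or Vsig4 required and 1.51 without cells of other-lineage UMIs, and Fn1 0.28 and 0.56 with Clec4f and with Clec4f or Vsig4 required. Vcan was 0.62 with 5 C1q UMIs, Mmp12 -0.68 without the excluded genes and Ddit4 -0.33 after thinning. The Vcan value rests on the floor of 3 counts, since 1 cell held all 20 Ctrl UMIs. The Ddit4 value shows no turn either, since 0 of 35 Ctrl and 3 of 74 KD cells held it after thinning. In the 11 and 8 cells without UMIs of the 40 other-lineage genes, Ddit4 was -0.49, Arfgef1 -1.08, Serpina3f 0.83, Ccl6 -0.076, Ccl24 -0.94 and Cxcl2 0.17. In the same cells Il1a was 0.34, Il6 0.73, Atf3 0.22, S100a8 -2.95 and S100a9 -2.08. S100a8 and S100a9 were not among the 40 genes, so these cells were not free of neutrophil UMIs. Some of the values in these cells rest on few UMIs, since Ddit4 and Arfgef1 had 6 and 10 UMIs in all 39 Ctrl cells. No intervals were computed for them. Under every alternative that gave a value, Egr1 (-2.75 to -2.08), Il10 (-3.73 to -1.08), Tnf (-2.07 to -1.51), Junb (-1.53 to -0.94), Ptgs2 (-4.21 to -2.39) and H2-Eb1 (-1.05 to -0.56) were lower in KD, and Siglec1 (1.09 to 1.73), Lepr (1.51 to 2.67) and Marco (0.33 to 1.45) higher. The 11 and 8 cells are among these alternatives. Ends of these ranges, such as those of Il10, Egr1 and Lepr, may therefore also rest on few UMIs or on the floor of 3 counts. The median of the immediate early and heat shock genes ranged from -1.22 to -0.26, and of 249 list medians 229 stayed within the counting error of their members.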
